A study of Mus musculus with 123 samples.

Results

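A set of 9 transcription factor genes with a place in the study of axon regeneration were followed in mouse dorsal root ganglion (DRG) neurons after sciatic nerve transection (SNT). The genes were *Sox11*, *Sox4*, *Klf4*, *Klf5*, *Klf6*, *Klf7*, *Klf9*, *Smad1* and *Myc*, chosen by their symbols, and all 9 were found among the 24134 genes measured. At day 3 *Sox11*, *Klf6* and *Smad1* rose in pooled neurons of the injured side, and *Klf5* fell. *Klf4* had too few reads to be tested, and the other members did not pass both the adjusted p and the fold limit. In single neurons the mean levels of *Sox11*, *Klf6*, *Smad1* and *Klf5* differed in the same directions at day 3 and day 7. At day 7 *Klf6* stayed under the fold limit, and *Klf5* passed it only through a single control-side cell. For *Sox11*, *Klf6* and *Smad1*, levels above every control-side cell lay mostly in cells that also carried high *Atf3*.

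DRG neurons send 1 axon branch to the periphery and 1 to the spinal cord, and after a cut of the peripheral branch many of them switch on a growth program that lets the axon regrow. SOX11 and SOX4 are closely related HMG-box factors of the SOXC group that are active in immature neurons, and SOX11 is known for promoting regrowth of sensory axons. Kruppel-like factors (KLFs) are zinc-finger proteins that bind GC-rich and CACCC sequences. KLF6 and KLF7 are known as promoters of axon growth in central neurons, and KLF4 and KLF9 as inhibitors of it. SMAD1 is the transcription factor that carries signals from bone morphogenetic protein (BMP) receptors to the nucleus, and MYC drives growth and ribosome production.

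All mice were 2 months old and had the right sciatic nerve cut at mid thigh under ketamine and xylazine anaesthesia, and neurons of the same mice from the uncut side were the control. Day-3 neurons came from L5 DRGs of F1 mice (CAST/Eij male X C57BL/6 female), which the methods describe as female, and were sequenced in reads of 50 bp. Day-7 neurons came from L3-L5 DRGs of female and male C57BL/6 mice and were sequenced in reads of 75 bp, so that day, strain, ganglia and read length cannot be told apart. The ganglia are those the labels give, while the methods name L5 in one place and L3-L5 in another for cells of both days. The protocol label of these cells names both days, and their titles and the methods give day 7. The data held 6 libraries of pooled day-3 neurons, 3 per side, and 117 single neurons picked by hand, of which 106 remained after the authors' removal of 11 outliers. The kept cells were 41 of the SNT side and 18 of the control side at day 3, and 33 (16 female, 17 male) and 14 (7 female, 7 male) at day 7. The 3 pooled libraries of a side are parts of 1 lysate, of 106 neurons according to the labels and fewer according to the methods, so the p-values set the difference of 2 pools against technical spread. No animal is named for any cell, and all cells of 1 side and day count as 1 sample, described without a test.

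Levels are given as CPM, the expected reads of a gene divided by the reads on all genes of that library and scaled by 1e6, with no correction for gene length, so levels are compared between libraries and never between genes. Pooled control-side libraries held 563462 to 839135 counts and SNT-side libraries 1148849 to 2003817, and kept cells held 261351 to 1849130. The sides of the pooled libraries were taken from their column names. A line of identifiers in the table pairs these 6 columns the other way, which would turn every pooled difference around, and their source label calls both sides intact. *Atf3*, the usual mark of axotomized neurons, was at 8.25, 21.5 and 10.6 CPM in the libraries named control and at 1619, 1372 and 1409 CPM in those named SNT, the same direction as in the day-3 cells, whose sides the labels give plainly. All 8 neuron markers were detected on both sides of the pools, with a summed level of 12012 to 14074 CPM on the control side and 20466 to 22730 CPM on the SNT side. *Tubb3*, 1 of these 8, averaged 3102 CPM on the control side and 9157 CPM on the SNT side, so this sum does not measure neuron content alone. All 10 glial markers were also detected, with a summed level of 11149 to 13814 CPM on the control side and 4887 to 5637 CPM on the SNT side, and the part of this difference in make-up in the pooled values was not tested. Immune markers summed to at most 9.98 CPM in any pooled library, and *Ptprc* was at 0 in all 6.

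Pooled neurons asked whether the injured side differed from the uncut side 3 days after SNT. Of 13509 genes that averaged 1 CPM or more, 15.9% passed an adjusted p below 0.05 in edgeR's quasi-likelihood test together with a log2 change beyond 1, 8.83% with higher levels on the SNT side and 7.114% with lower. Of the members 8 could be tested, and 3 of them were called higher and 1 lower.

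*Sox11* was at 30.3, 21.5 and 23.1 CPM in the 3 control-side libraries and at 285, 239 and 221 CPM in the 3 SNT-side libraries. Every SNT-side library was far above every control-side library, and the increase was 3.469 ± 0.22 on the log2 scale (SE, n = 3 per side, adjusted p = 2.69e-16, edgeR), or 11.1-fold with a 95% interval of 8.25 to 14.9. Libraries of the sides were apart with the SNT side higher for 16.8% of all genes. The control-side values of *Sox11* rest on 13 to 22 reads per library. *Sox4*, its relative, was at 2.75, 1.19 and 8.87 CPM on the control side and at 1.196, 2.61 and 1.996 CPM on the SNT side. The sides overlapped, no library held more than 5 reads, and the log2 difference of -0.87 ± 1.02 (SE) did not pass (adjusted p = 0.594, edgeR). Its sign turned to 0.12 without control replicate 3, and the 95% interval from -2.88 to 1.13 leaves its direction unknown.

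Among the KLF genes thought to promote axon growth, *Klf6* was at 42.6, 35.7 and 39.04 CPM on the control side and at 178, 172 and 204 CPM on the SNT side. The sides did not overlap and the increase was 2.40 ± 0.21 on the log2 scale (SE, adjusted p = 2.86e-12, edgeR), or 5.28-fold. *Klf7* was at 172, 200 and 153 CPM on the control side and at 235, 228 and 296 CPM on the SNT side. The libraries of the sides did not overlap here either, as for 16.8% of all genes with the SNT side higher. The log2 difference of 0.69 ± 0.16 had an adjusted p of 0.00118 (edgeR) but stayed under the limit of 1, so *Klf7* was not called.

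Of the growth-inhibiting KLF genes none was called higher. *Klf4* was listed with 1 read in 1 control-side library and with none in the other 5, which is under the limit of 3 reads, so neither a level nor a difference can be given. *Klf9* was at 50.9, 44.1 and 28.4 CPM on the control side and at 31.7, 31.3 and 33.5 CPM on the SNT side, with overlapping sides and a log2 difference of -0.21 ± 0.29 (SE, adjusted p = 0.650, edgeR). Its 95% interval ran from -0.77 to 0.35, so a change as large as that of *Klf6* lay outside it. *Klf5*, a KLF known mainly from dividing epithelial and smooth muscle cells, was at 38.5, 29.8 and 39.04 CPM on the control side and at 13.2, 6.09 and 14.97 CPM on the SNT side. Here every SNT-side library was below every control-side library, as for 21.3% of all genes, and *Klf5* fell by 1.42 ± 0.37 on the log2 scale (SE, adjusted p = 0.00322, edgeR).

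*Smad1* was at 31.6, 27.4 and 37.3 CPM on the control side and at 63.4, 64.4 and 57.4 CPM on the SNT side. The sides did not overlap, as for 16.8% of all genes with the SNT side higher. The rise of 1.11 ± 0.26 on the log2 scale (SE, adjusted p = 0.00118, edgeR) passed the fold limit narrowly. With scaling by library size alone, under which the median of all genes moved from 0.02 to -0.14, the *Smad1* value was 0.95, or 1.10 above that median, and the call was lost. The same scaling turned the share of called genes that were higher on the SNT side from 55.4% to 43.6%. *Myc* was at 17.9, 20.3 and 33.7 CPM on the control side and at 29.3, 35.7 and 34.9 CPM on the SNT side. Control replicate 3 overlapped the SNT side, and the log2 difference of 0.67 ± 0.32 (SE) did not pass (adjusted p = 0.137, edgeR).

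**Figure D1:**
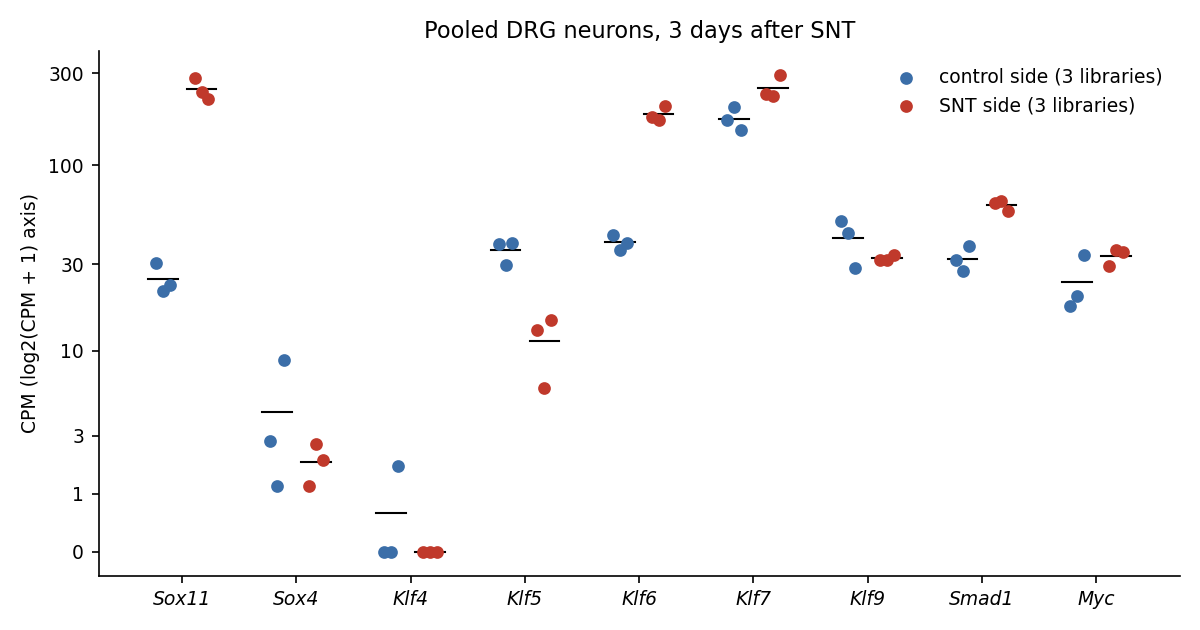
CPM of the 9 genes in the 6 pooled libraries on a log2(CPM + 1) axis, with 1 point per library, control side in blue, SNT side in red, and the mean of 3 libraries as a black bar. The points of the sides are apart for *Sox11*, *Klf5*, *Klf6*, *Klf7* and *Smad1*, and *Klf4* is at 0 in 5 of 6 libraries. Of all genes tested 16.8% were apart with the SNT side higher and 21.3% with it lower.

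The promoters of the 3 genes that rose are shown because these genes moved together in the pools and, as described below, in the same cells. Each is the 250 bases before the RefSeq start site, on the gene's strand, from build GRCm38.p6. The expression tables were made on another build and carry no coordinates. Of the members 7 had an entry in the promoter table, and *Klf5* and *Myc* had none. Capitals mark matches on either strand to 7 short sequences: the GC box GGGCGG, the CCAAT box CCAAT, the KLF-type sequence CACCC, the AP-1 site TGACTCA, the CRE TGACGTCA, the E-box CACGTG and the TATA box TATAAA. No letters of 1 motif overlap those of another in these 3 windows.
Sox11, chr12:27342719-27342968, minus strand: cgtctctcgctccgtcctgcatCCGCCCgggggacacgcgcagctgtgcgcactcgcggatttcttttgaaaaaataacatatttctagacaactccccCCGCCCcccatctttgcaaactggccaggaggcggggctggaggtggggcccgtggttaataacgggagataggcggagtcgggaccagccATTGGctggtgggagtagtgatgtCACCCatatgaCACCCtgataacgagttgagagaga
Klf6, chr13:5861239-5861488, plus strand: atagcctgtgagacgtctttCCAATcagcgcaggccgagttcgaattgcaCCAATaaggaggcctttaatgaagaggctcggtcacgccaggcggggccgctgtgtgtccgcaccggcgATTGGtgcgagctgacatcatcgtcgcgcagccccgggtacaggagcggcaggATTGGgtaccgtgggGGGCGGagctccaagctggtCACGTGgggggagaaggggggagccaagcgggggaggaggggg
Smad1, chr8:79399429-79399678, minus strand: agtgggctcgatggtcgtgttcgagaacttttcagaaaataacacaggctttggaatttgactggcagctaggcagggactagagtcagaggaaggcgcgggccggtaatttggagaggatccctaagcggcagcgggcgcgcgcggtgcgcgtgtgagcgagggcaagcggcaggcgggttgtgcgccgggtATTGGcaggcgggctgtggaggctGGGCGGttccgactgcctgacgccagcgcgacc

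All 3 windows held a GC box and a CCAAT box. Over all 32851 windows of the table, 32.7% held a GC box and 33.8% a CCAAT box, and among the 7 members each was found in 5. The CACCC sequence stood in the *Sox11* window at 2 places, within 36 bases of the start, and in those of *Klf7* and *Klf9*, against 52.0% of all windows. The E-box was found in the *Klf6* and *Klf4* windows and in 6.02% of all windows. The AP-1, CRE and TATA sequences were in no member's window, and in 4.46%, 1.55% and 12.4% of all windows. The GC content was 58.0% for *Sox11*, 64.8% for *Klf6* and 63.6% for *Smad1*, against a median of 52.4% over all windows. A match is a description of letters and not a bound site.

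Single neurons showed how these levels were spread over cells. In what follows a log2 ratio compares the mean CPM + 1 of SNT-side cells with that of control-side cells. At day 3, 5.82% of 9736 genes that averaged 10 CPM or more on the higher side had a ratio above 1, and 6.07% a ratio below -1, or 11.9% in all, and at day 7 the shares were 4.45% and 3.211% of 9622 genes, or 7.66% in all. *Sox11*, *Klf6* and *Smad1* were above 1 at day 3, *Sox11* and *Smad1* at day 7, and *Klf5* was below -1 on both days, among the 7 members with at least 10 CPM.

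*Sox11* ran from 0 CPM through a median of 35.1 to 62.2 CPM in the 18 control-side cells at day 3, and from 2.30 through 305 to 1017 CPM in the 41 SNT-side cells. The means were 32.1 ± 17.5 and 369 ± 312 CPM (SD over cells), a log2 ratio of 3.4804, and 31 of the 41 SNT-side cells exceeded the highest control-side cell. In the same comparison 2.96% of genes had more than 50% of SNT-side cells above every control-side cell. At day 7 the control-side cells ran from 0 through 10.7 to 65.0 CPM and the SNT-side cells from 0 through 21.5 to 517 CPM. The means differed by a log2 ratio of 3.202 and the medians by 0.94, since 12 of 33 SNT-side cells were above every control-side cell while the other 21 overlapped them. The SNT-side cells at day 7 thus fell into a high and a low set, with no cell between 49.9 and 252 CPM. The share above 10 CPM was 95.1% of SNT-side cells at day 3 (39 of 41, exact 95% interval 83.5% to 99.4%) and 69.7% at day 7 (23 of 33, 51.3% to 84.4%), against 83.3% and 50.0% of control-side cells. These intervals treat cells as independent, though the animals of the cells are not named.

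*Klf6* ran from 13.1 through 50.3 to 139 CPM in control-side cells at day 3 and from 9.81 through 162 to 621 CPM in SNT-side cells, with 24 of 41 above every control-side cell and a log2 ratio of 1.76. At day 7 it ran from 14.6 through 59.6 to 102 CPM in control-side cells and from 0 through 76.0 to 340 CPM in SNT-side cells. The day-7 ratio was 0.83, with 13 of 33 SNT-side cells above and 5 below the control-side range, so the SNT side was wider in both directions. *Klf7* was detected in every kept cell on both days. At day 3 its median was 278 CPM in control-side cells and 284 CPM in SNT-side cells, a log2 ratio of the means of 0.13, and 2 of 41 SNT-side cells exceeded the control range. At day 7 the medians were 94.3 and 112 CPM and the ratio 0.31.

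*Smad1* ran from 6.35 through 21.6 to 74.2 CPM in control-side cells and from 7.02 through 96.7 to 225 CPM in SNT-side cells at day 3, with 26 of 41 above every control-side cell and a log2 ratio of 1.804. At day 7 it ran from 11.1 through 21.8 to 37.2 CPM and from 9.44 through 42.1 to 231 CPM, with 18 of 33 above and a ratio of 1.75. At day 7, 1.09% of genes had more than 50% of SNT-side cells above every control-side cell. By medians the day-7 ratio was 0.92. *Myc* had control-side and SNT-side medians of 27.6 and 20.7 CPM at day 3 and of 10.4 and 12.5 CPM at day 7. Its spread was wider on the SNT side at day 3, from 0 to 147 CPM against 10.7 to 58.4 CPM, with 7 of 41 cells above and 8 below the control range.

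The levels of *Klf9* overlapped throughout, with medians of 64.6 and 49.4 CPM at day 3 and of 50.7 and 55.2 CPM at day 7 for control and SNT sides, and it was above 10 CPM in all 106 kept cells. *Klf4* stayed near the limit of detection. It was at 0 in 11 of 18 control-side and 27 of 41 SNT-side cells at day 3 and in 12 of 14 and 26 of 33 at day 7, and its highest value was 12.5 CPM. *Sox4* had medians of 6.00 and 2.61 CPM at day 3 and of 1.30 and 1.956 CPM at day 7 for control and SNT sides. Its ratio of means was -0.54 at day 3 and 1.05 at day 7, with means below 10 CPM on both days.

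**Figure D2:**
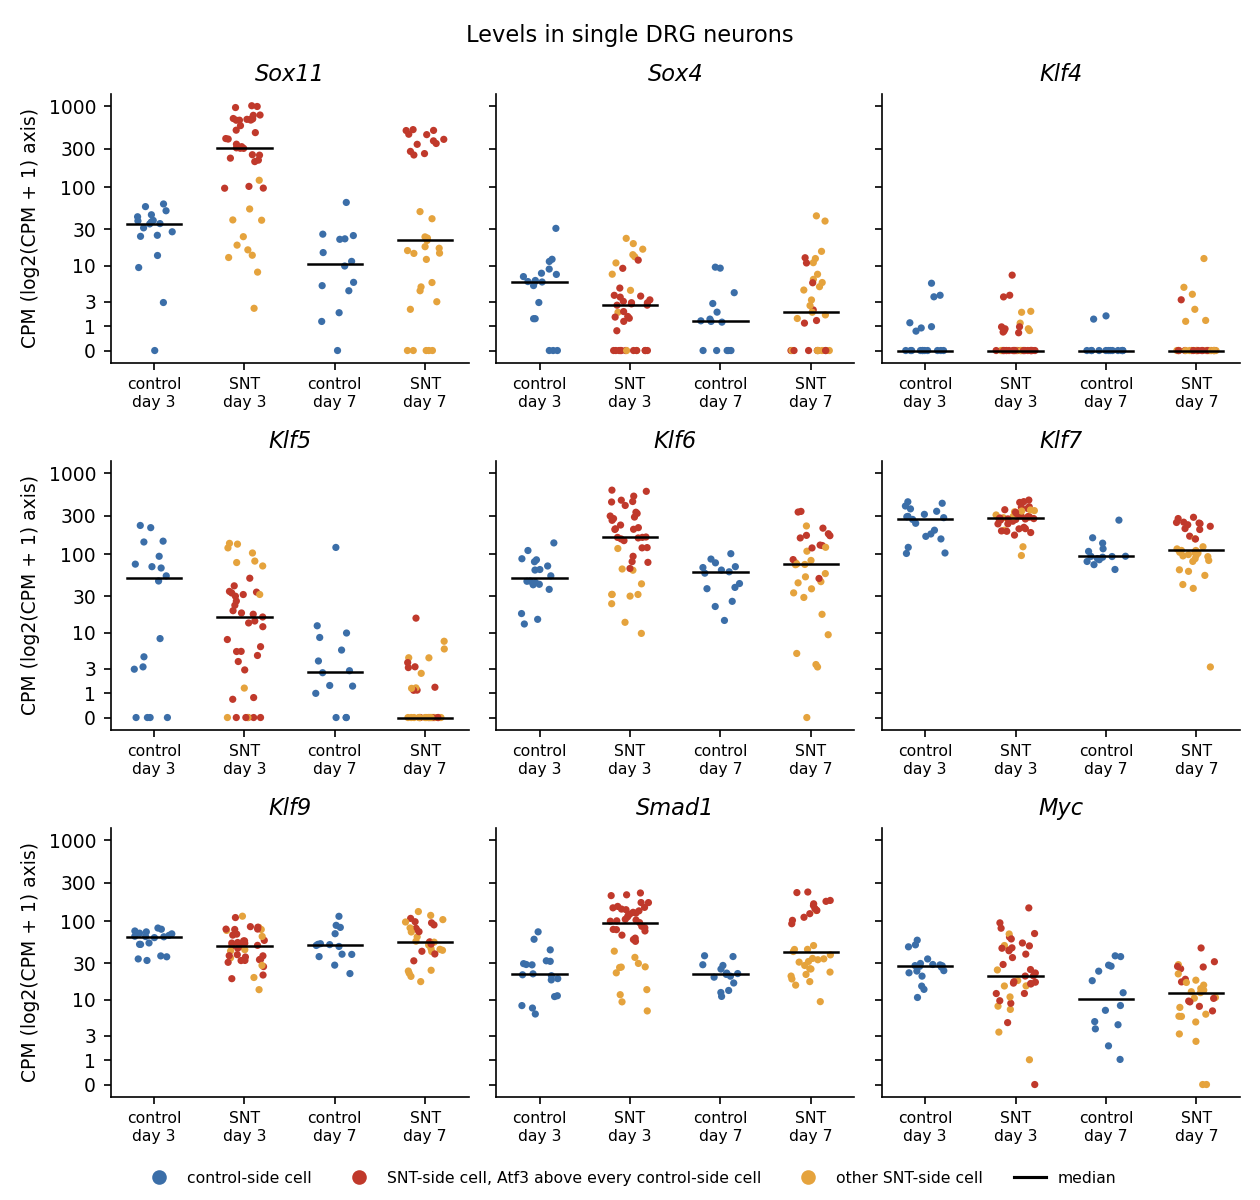
CPM of the 9 genes in each kept cell on a log2(CPM + 1) axis, by side and day, with control-side cells in blue, SNT-side cells with *Atf3* above every control-side cell of that day in red, other SNT-side cells in yellow, and medians as bars. Red points stand above blue ones for *Sox11* and, for the most part, *Smad1* and *Klf6*, and yellow points for *Sox11* do not exceed the highest blue one, except 1 at day 3.

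*Atf3* divided the SNT-side cells into sets with no values between. At day 3, 30 of 41 cells were above every control-side cell, at 951 CPM or more, and the other 11 were at 23.04 CPM or less. At day 7 there were 12 cells at 704 CPM or more and 21 at 13.9 CPM or less. *Atf3* is no member and was not used to choose them, but both are known to respond to axotomy, so their overlap is given as a description. The cut spares some axons of these ganglia, and which cells were cut was not tested.

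*Sox11* followed this division closely. At day 3 the *Atf3*-high cells ran from 97.7 through 438 to 1017 CPM, all 30 above every control-side cell, and the 11 *Atf3*-low cells ran from 2.30 through 18.7 to 123 CPM, with 1 above. At day 7 the 12 *Atf3*-high cells ran from 252 through 384 to 517 CPM, all above, and the 21 *Atf3*-low cells from 0 through 12.2 to 49.9 CPM, with none above. Over control-side cells the *Atf3*-high mean stood at a log2 ratio of 3.896 at day 3 and 4.57 at day 7, and the *Atf3*-low mean at -0.01 and -0.23. *Atf3*-high cells were 30 of 41 SNT-side cells at day 3 and 12 of 33 at day 7. Cells were picked by hand, and the choice of cells can set these numbers.

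*Smad1* ran from 56.5 through 117 to 225 CPM in *Atf3*-high and from 7.02 through 26.4 to 42.5 CPM in *Atf3*-low cells at day 3, with no overlap. At day 7 it ran from 93.6 through 151 to 231 CPM in *Atf3*-high cells, and the *Atf3*-low cells, at 9.44 through 30.9 to 136 CPM, held 6 that were above every control-side cell. *Klf6* medians were 211 and 31.5 CPM in *Atf3*-high and *Atf3*-low cells at day 3 and 165 and 45.7 CPM at day 7, and the 2 sets overlapped on both days. For *Klf7* the medians were 276 and 294 CPM at day 3, but at day 7 the *Atf3*-high cells ran from 155 through 236 to 288 CPM and the *Atf3*-low cells from 3.181 through 95.9 to 156 CPM. The day-7 ratio over control-side cells was 1.03 in *Atf3*-high cells and -0.34 in *Atf3*-low cells, against 0.16 and 0.05 at day 3, and the difference between the days was not tested. For *Klf9* the sets overlapped widely, with medians of 49.8 and 44.4 CPM at day 3. *Myc* also overlapped, with medians of 26.9 and 15.2 CPM at day 3 and of 17.9 and 10.8 CPM at day 7.

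**Figure D3:**
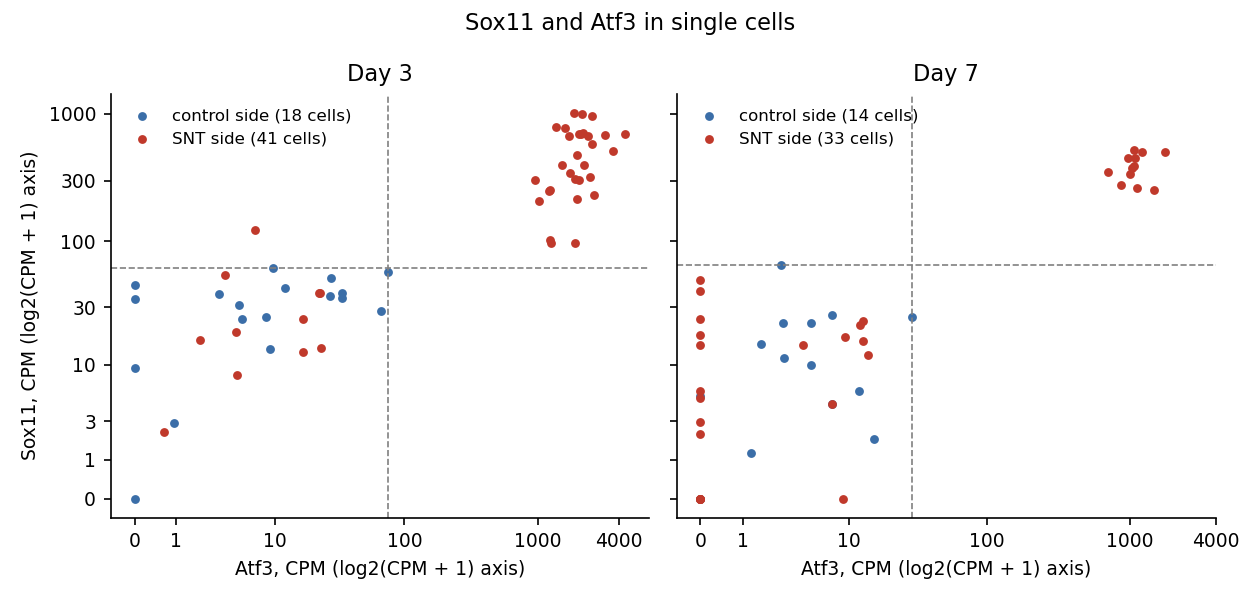
*Sox11* against *Atf3* in each kept cell at day 3 (left) and day 7 (right), both in CPM on log2(CPM + 1) axes, with control-side cells in blue, SNT-side cells in red and dashed lines at the highest control-side value of each gene. The *Atf3*-high cells form a set of their own at the upper right of both plots, 30 at day 3 and 12 at day 7.

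*Sox11*, *Klf6* and *Smad1*, the members that rose in the pools, were high in the same cells. At day 3, 23 of the 30 *Atf3*-high cells had all 3 above every control-side cell, 4 had 2 and 3 had 1, whereas 10 of the 11 *Atf3*-low cells had none. At day 7, 10 of the 12 *Atf3*-high cells had all 3 and the other 2 had 2, and 14 of the 21 *Atf3*-low cells had none. Over the 41 SNT-side cells at day 3 the Spearman correlation of *Sox11* was 0.82 with *Klf6* and 0.79 with *Smad1*, and over the 33 at day 7 it was 0.61 and 0.75. The SNT-side cells mix *Atf3*-high and *Atf3*-low sets. Over the 18 control-side cells at day 3 the values were 0.04 and 0.30, and over the 14 at day 7 they were -0.19 and -0.53. These are descriptions across cells that share animals and libraries of unequal depth. Within the SNT side, *Sox11* had correlations of 0.06 and 0.27 with the total counts of a cell at day 3 and day 7.

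The *Atf3*-high cells at day 3 were also split by marker genes at more than 10 CPM, a cut that does not by itself set a type of neuron. *Sox11* ran from 305 through 678 to 1017 CPM in the 17 cells with *P2rx3*, an ATP receptor gene of nociceptors, and from 97.7 through 251 to 701 CPM in the 13 without it. In the 9 cells with *Pvalb*, a marker of proprioceptors, its median was 230 CPM, against 675 CPM in the 21 without. The same order held for *Klf6*, with medians of 290 and 160.0 CPM with and without *P2rx3*, and for *Smad1*, with 140 and 83.3 CPM. For *Calca*, a gene of peptidergic nociceptors, the *Sox11* median was 675 CPM in the 22 cells with it and 252 CPM in the 8 without. All these sets overlapped. *P2rx3* was above 10 CPM in 16 of the 18 control-side cells of day 3. In the pools it had a log2 difference of -1.23, and the part of injury in this split was not tested. At day 7 a single *Atf3*-high cell had *P2rx3*, and the 7 with *Pvalb* had a median *Sox11* of 341 CPM against 454 CPM in the 5 without.

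Female and male cells at day 7 came from different animals and are set side by side. *Sox11* had a log2 ratio of 3.87 in female cells, where 8 of 16 SNT-side cells were above every female control-side cell, and of 2.43 in male cells, with 4 of 17. The number of *Atf3*-high cells differed in the same way, 8 of 16 female and 4 of 17 male cells, and all 12 were high in *Sox11* against the control-side cells of both sexes. *Smad1* had ratios of 2.10 and 1.36, *Klf6* of 0.59 and 1.11, and *Klf5* of -1.02 and -3.11 in female and male cells. The male *Klf5* value rests on the control-side cell with 122 CPM, without which it was -0.40. A difference between the sexes was not tested.

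**Figure D4:**
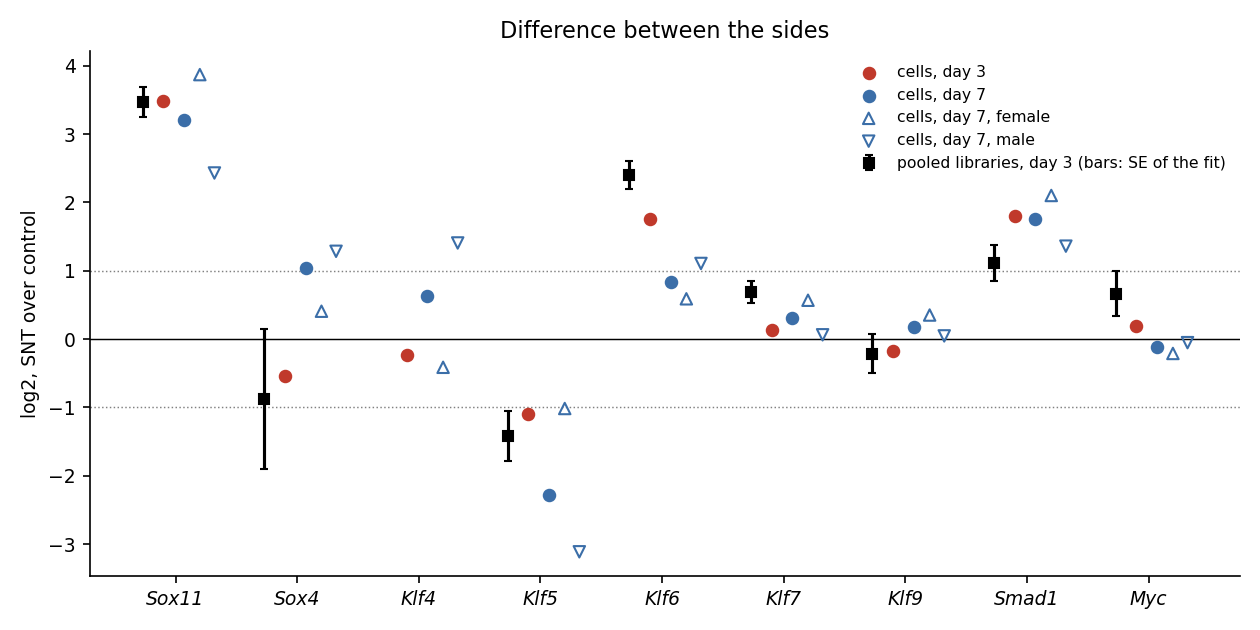
The log2 difference of the SNT over the control side for the 9 genes, with squares for pooled libraries (bars show the SE derived from the edgeR test statistic), red circles for day-3 cells, blue circles for day-7 cells and open triangles for female (up) and male (down) day-7 cells, dotted lines at the fold limit of 1. *Sox11* lies between 2.43 and 3.87 in every comparison, *Klf5* is below -1 in every one (though not at day 7 without 1 control-side cell), and *Klf4* was not tested in the pools.

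*Klf5* was patchy among control-side cells, from 0 through 50.3 to 228 CPM at day 3. Its level went with *Mrgprd*, the receptor gene that marks nonpeptidergic nociceptors. The 9 control-side cells with *Mrgprd* above 10 CPM had a median *Klf5* of 94.8 CPM, and the other 9 had 3.191 CPM. At day 7 a single control-side cell of 14 was above 10 CPM for *Mrgprd*, with 122 CPM of *Klf5*, and no SNT-side cell was. Without this cell, left out after its value was seen, the day-7 *Klf5* ratio over all cells was -0.83 where it had been -2.29, no longer past the fold.

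At day 3, 24.4% of the kept SNT-side cells were above 10 CPM for *Mrgprd* (10 of 41, exact 95% interval 12.4% to 40.3%). On the control side the share was 50.0% (9 of 18, 26.02% to 74.0%). The intervals overlap and treat cells as independent, though the animals of the cells are not named. In the pools *Mrgprd* was at 938 to 1074 CPM on the control side and at 0 to 2.61 CPM on the SNT side, and its part in the fall of *Klf5* there was not tested. Among day-3 cells above 10 CPM of *Mrgprd*, *Klf5* ran from 8.09 through 17.6 to 50.5 CPM in the 5 *Atf3*-high cells and from 71.8 through 120 to 137 CPM in the 5 *Atf3*-low cells of the SNT side. These sets did not overlap for *Klf5*, but they were also unlike in *Mrgprd* itself. It was at 14.2 to 28.6 CPM in the 5 *Atf3*-high cells, whereas 3 of the 5 *Atf3*-low cells and 6 of the 9 control-side cells were above 1000 CPM, so the sets were not matched for it. In pooled neurons fewer cells of a type and less RNA per cell cannot be told apart.

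The genes most like a member were taken as the 3 highest Spearman correlations over the 41 day-3 SNT-side cells among 9165 genes that averaged 10 CPM or more there. For *Sox11* they were *Gadd45g*, *Rnf122* and *Itga7*, each at 0.89, with 0.68, 0.40 and 0.60 over the 33 day-7 cells. For *Klf6* they were *Flrt3* (0.85, and 0.67 at day 7), *Itga7* (0.84 and 0.51) and *Stmn4* (0.84 and 0.73). For *Smad1* they were *Rtn4* (0.83 and 0.87), *Atf3* (0.82 and 0.62) and *Gm13889* (0.82 and 0.45). *Rtn4*, the gene of the myelin protein Nogo that neurons also express, was the gene most like *Smad1* on both days. *Klf5* was most like *Nfat5*, *Acpp* and *Auts2*, at 0.85, 0.85 and 0.84 at day 3 but at 0.12, 0.08 and 0.17 at day 7, when *Klf5* was at 15.6 CPM or less in every SNT-side cell. For *Klf7* (*Ids*, *Acly* and *Ptma*), *Klf9* (*Setd6*, *Zfhx2* and *Runx1*) and *Myc* (*Zc3hav1*, *Yars* and *Asns*) the values were 0.62 to 0.79 at day 3. At day 7 they were 0.42, 0.75 and 0.41 for *Klf7*, -0.07, 0.18 and -0.20 for *Klf9*, and 0.25, 0.09 and 0.27 for *Myc*. The highest of 9165 correlations are picked by their size at day 3, so those day-3 values are no test of a link.

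The SOX and KLF families were called about as often as all genes. In the pools, where 15.9% of all genes were called and 8.83% were higher, 2 of 12 tested SOX genes were higher and none was lower, with a median log2 change of -0.12, against 0.02 over all genes. Apart from *Sox11* the gene called was *Sox9*, which had no read in the control-side libraries and 5.98, 6.96 and 9.98 CPM in the SNT-side libraries. It was at least 5.59-fold higher, taking 3 reads over the control side as the limit. *Sox10*, a glial factor, was at 23.4 ± 4.86 and 10.7 ± 4.50 CPM (SD, n = 3) on the control and SNT sides and was not called. Of 12 tested KLF genes, *Klf6* was higher, *Klf5* was lower and the other 10 were not called, and the median was -0.02. Of the 10 tested genes of the MYC-MAX network 0 were called by edgeR, DESeq2 or limma, with 2, 0 and 0 at an unadjusted p below 0.05, and the median in edgeR was -0.13.

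In the BMP-SMAD list 3 of 16 tested genes were higher, 5 were lower and 8 were not called, against 8.83% higher and 7.114% lower over all genes, with a median log2 change of -0.73. In cells 3 of 13 genes were past the fold upwards and 3 downwards at day 3, with a median ratio of -0.53, and 3 and 1 of 13 at day 7, with a median of 0.25. The shares over all genes were 5.82% upwards and 6.07% downwards at day 3, and 4.45% and 3.211% at day 7. On the receptor side *Acvr1*, a type I BMP receptor gene, was at 5.39 ± 1.76 CPM on the control side and 74.4 ± 0.804 CPM on the SNT side (SD, n = 3), a rise of 3.97 ± 0.36 on the log2 scale (SE, adjusted p = 1.39e-11, edgeR). In cells it was higher by log2 ratios of 2.41 at day 3 and 1.42 at day 7. The other receptor genes of the list were not called. *Bmpr1a* had a log2 difference of -0.98 in the pools (adjusted p = 0.0143, edgeR), under the fold limit, and ratios of -0.55 and -0.20 in cells. *Bmpr1b*, at 0.794 and 2.94 CPM in the pools, had 1.66 (adjusted p = 0.392, edgeR), and -0.27 on both days in cells. *Bmpr2* had -0.11 (adjusted p = 0.709, edgeR), and -0.53 and 0.25 in cells. *Fst*, whose product follistatin traps activins and some BMPs, had 1 read on the control side against 52.2 to 96.7 CPM in the SNT-side libraries, a ratio of 179 with a counting interval of 31.9 to 7078. In cells its ratios were 3.00 and 4.87.

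Among the SMADs of the BMP branch, *Smad9* went the other way from *Smad1*, from 34.3 ± 4.96 to 12.1 ± 2.69 CPM (SD, n = 3), a fall of 1.34 ± 0.36 on the log2 scale (SE, adjusted p = 0.00473, edgeR). In cells it had a ratio of -0.93 at day 3 and of 0.67 at day 7. The 4 *Id* genes, standard targets of BMP signalling, all fell in the pools. *Id1* went from 18.0 ± 2.57 to 1.02 ± 0.164 CPM, *Id2* from 49.2 ± 4.28 to 9.58 ± 2.40 CPM, *Id3* from 171 ± 13.9 to 29.3 ± 4.88 CPM and *Id4* from 12.1 ± 7.89 to 1.56 ± 1.78 CPM (SD, n = 3). The log2 changes were -3.83, -2.17, -2.37 and -2.60, with adjusted p (edgeR) of 4.99e-05, 3.03e-06, 8.13e-12 and 0.0110. The summed glial markers were also lower in these SNT-side libraries, from a median of 13063 to 5329 CPM, and their part in the *Id* values was not tested. In cells the ratios of *Id1*, *Id2* and *Id3* were -3.07, -1.43 and -0.99 at day 3 and -1.45, -0.90 and -0.85 at day 7, while that of *Id4* was -1.78 and then 0.14. The median glial sum of cells was 1596 CPM on the control and 3187 CPM on the SNT side at day 3, the opposite direction from the pools, and 4731 and 1135 CPM at day 7.

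A list of 18 genes that have been linked to these factors as targets was followed in the same way. In the pools 9 of the 18 were higher, against 8.83% of all genes, none was lower, and the median log2 change was 0.97. In cells 5 of 18 were past the fold upwards and 1 downwards at day 3, with a median ratio of 0.34, and 5 and 1 of 17 at day 7, with a median of 0.03. Over all genes the shares upwards and downwards were 5.82% and 6.07% at day 3 and 4.45% and 3.211% at day 7. Of genes linked to SOX11, *Sprr1a*, which is strongly induced in regrowing sensory neurons, went from 6.00 ± 4.19 to 1402 ± 123 CPM (SD, n = 3), and its ratios in cells were 7.57 and 9.52. *Tubb3*, a neuronal tubulin, rose by 1.72 ± 0.11 in the pools (SE, adjusted p = 2.84e-16, edgeR) and had ratios of 0.81 and -0.10 in cells. *Tnfrsf12a* had log2 differences of 2.76 in the pools and 3.01 and 1.40 in cells. *Bdnf* rose in the pools by 1.85 on the log2 scale (adjusted p = 5.50e-08, edgeR) but had ratios of -0.66 and -0.25 in cells.

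Of genes linked to KLF7, *Gap43*, a growth cone protein, rose by 3.91 ± 0.15 in the pools (SE, adjusted p = 1.15e-22, edgeR), with ratios of 1.961 and 1.36 in cells. *Cdkn1a*, an inhibitor of the cell cycle, rose by 4.18 ± 0.21 (SE, adjusted p = 7.79e-19, edgeR), with ratios of 2.87 and 2.96. *L1cam* of the same list was not called, with a log2 difference of 0.19 in the pools and ratios of -0.11 and -0.03 in cells. *Odc1*, a gene that MYC is known to switch on and the entry enzyme of polyamine synthesis, rose by 1.74 ± 0.28 (SE, adjusted p = 7.21e-06, edgeR), with ratios of 1.22 and 1.21, while *Myc* itself was not called. The other 5 genes linked to MYC were not called in the pools, with log2 differences of 0.91 for *Ncl*, 0.76 for *Fbl*, 0.54 for *Nop56*, 0.38 for *Cad* and 0.02 for *Npm1*. *Ncl* (adjusted p = 5.11e-05, edgeR) and *Nop56* (adjusted p = 0.0259, edgeR) missed the call only by the fold limit. Among 5 tested immediate early genes, which answer quickly to handling of tissue, *Dusp1* was higher, and *Fos*, *Egr1* and *Ier2* were lower, in the SNT-side pools, and their part in the member values was not tested. A median of a list chosen with its members' behaviour known is a description and not a test.

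**Figure D5:**
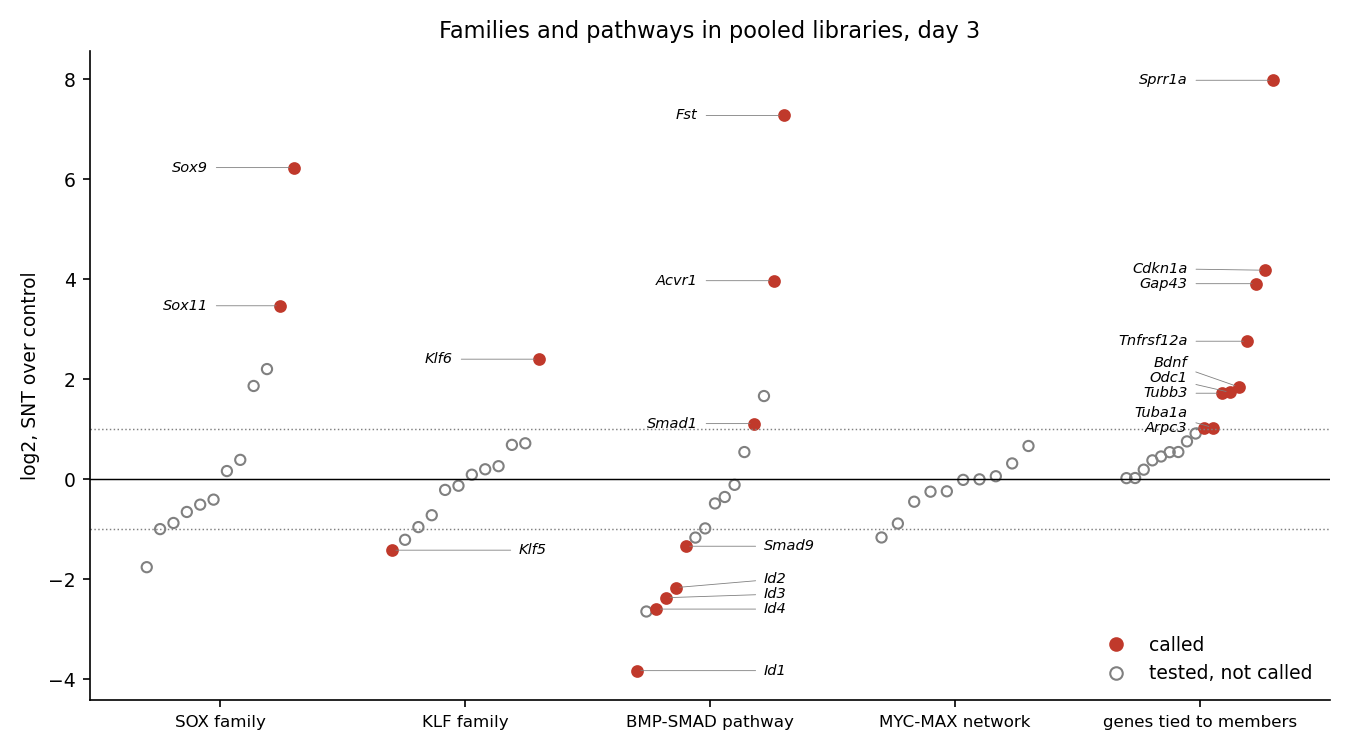
The log2 difference of the SNT over the control side in pooled libraries for each tested gene of 5 lists, ordered by size within a list, with called genes as filled points with their names and others as open circles, and dotted lines at the fold limit of 1. Called genes are 2 of 12 SOX, 2 of 12 KLF, 8 of 16 BMP-SMAD, 0 of 10 MYC-MAX and 9 of 18 genes linked to members, and the heights of *Sox9* and *Fst*, with 0 and 1 control-side reads, depend on the prior count.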

How the data were processed

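The members, gene lists and comparisons were chosen with earlier results of these data known. The authors picked single neurons, or lysed pooled neurons, and made libraries by Smart-seq2, which carries no molecular identifiers, so reads are not counts of molecules. Intervals from edgeR cover the spread between libraries of the same lysate. The interval of the *Fst* ratio covers the counting of reads, and those of shares treat cells as independent. Per the labels, reads were handled with CASAVA 1.8.2, Bowtie2 and RSEM on build mm9. The deposited tables are named TPM, but their values are expected counts, since library totals run from 223967 to 2003817 and 60.7% to 93.6% of values above 0 in a library are whole numbers. The 2 tables agree in every value, with 27 symbols that differ, for which those of the second were used. All columns were used.

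For the pooled libraries expected counts were made whole numbers, genes averaging less than 1 CPM were dropped, and TMM scaling, a prior count of 0.125, edgeR 4.0.16 in R 4.3.3 and Benjamini-Hochberg adjustment were used, with limma 3.58.1 and DESeq2 1.42.0 as alternatives. Levels are plain CPM. A gene was called at an adjusted p below 0.05 where its log2 change also passed 1. The fit was tested on simulated data. The SE of an edgeR log2 change was derived as its size divided by the square root of the quasi-likelihood F statistic. It therefore moves with the prior count. Intervals of a log2 change are the estimate and 1.96 SE either way. Pairs of libraries of 1 side differed beyond counting noise (mean chi-square over genes 2.48 to 3.93). Cells were compared without a test, as log2 ratios of mean CPM + 1, with exact (Clopper-Pearson) 95% intervals for shares, in Python 3.11.15 with pandas 2.3.3, numpy 2.4.6 and scipy 1.17.1. Named genes were the members, up to 8 genes of each list by size among those called in the pools or past the fold on both days, and the 3 genes most like each member over day-3 SNT-side cells. *Sox10*, *L1cam*, *Bmpr1a*, *Bmpr1b*, *Bmpr2* and 5 genes linked to MYC were added to these after their values were seen. A gene that this rule names is not reported here. The MYC-MAX list had 11 of its 12 names in the table. Counting was not stated to use strand, and in GENCODE annotation (GRCm38) exons of *Sox4* and *Klf7* overlap genes on the opposite strand, which could share their reads. Results under other settings are given at the end.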

Additional observations from a re-analysis of the deposited data

Results flagged for a closer look

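Among the members 4 had log2 ratios of opposite sign at day 3 and day 7, and the difference between the days was not tested, since each day has 1 sample per side. They were -0.54 and 1.05 for *Sox4*, -0.24 and 0.63 for *Klf4*, -0.17 and 0.18 for *Klf9* and 0.19 and -0.12 for *Myc*. *Sox4* and *Klf4* are below 10 CPM on average on both days. Among the other named genes, *Smad9* (-0.93 and 0.67), *Id4* (-1.78 and 0.14) and *Tubb3* (0.81 and -0.10) did the same. *Klf4* had a ratio of -0.41 in female and 1.41 in male day-7 cells, also not tested. All 7 male control-side cells were at 0 and the mean was 1.65 CPM in male SNT-side cells, so this value rests on the pseudocount.

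The 7 SNT-side cells that the authors removed as outliers, all from day 3, are in no value of the report, and their inclusion was tried only as an alternative. Against every control-side cell of day 3, removed cells included, 5 of them were higher for *Klf6*, 3 for *Sox11*, and 1 each for *Klf4*, *Klf9* and *Myc*. The highest *Klf6* among them was 1056 CPM, above the 621 CPM of the highest kept cell. *Klf7* in these cells ran from 30.9 to 110 CPM, against at least 96.8 CPM in kept SNT-side cells of that day.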

How the results depend on the processing

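In the pools the calls of *Sox11*, *Klf6* and *Klf5* held under all 15 alternatives: RLE factors, library size alone, DESeq2, limma with trend, no filter or a mean of at least 10 CPM, a replicate block, thinning, a prior count of 2 and each library left out. *Smad1* lost its call with library size alone (0.95). *Sox4* reversed, with values from -1.36 to 0.12 when 1 library was left out, 0.12 being that without control replicate 3. The number of genes called ranged from 1649 to 2243 around 2154 and stayed within 1.5 times of it. Library numbers did not pair the sides, with correlations of 0.06, -0.02 and -0.01 for same-numbered libraries. The replicate block gave 2008 genes called, and 3 members higher and 1 lower as before.

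In cells 60 of 64 values at day 3 and 55 of 75 at day 7 moved by less than 1.5 times and stayed on their side of the fold limit. With a pseudocount of 10 CPM *Klf5* was -0.91 at day 3 and -0.93 at day 7, so that 0 members were past the fold downwards on either day, and *Sox4* at day 7 was 0.37. With 0.1 CPM *Klf4* at day 7 was 1.63. With medians *Myc* at day 3 was -0.40, and at day 7 *Sox11* was 0.94, *Smad1* 0.92, *Sox4* 0.36 and *Klf4* 0, so that 0 members were past the fold upwards. *Sox4* at day 7 was 0.88 from summed counts and 0.92 after thinning, and *Klf4* at day 3 was -0.84 after thinning. In female cells *Sox11* was 3.87, *Sox4* 0.41, *Klf4* -0.41 and *Klf5* -1.02, and in male cells *Sox11* was 2.43, *Klf4* 1.41, *Klf5* -3.11 and *Klf6* 1.11. Without cells above 10 CPM of *Mrgprd*, an alternative added after the data were seen, *Klf5* reversed to 0.054 at day 3 and was -0.83 at day 7. This filter takes out 9 of 18 control-side cells at day 3 and 10 of 41 SNT-side cells, and *Mrgprd* was itself at 28.6 CPM or less in every *Atf3*-high cell, so the value bears on no cause. Without control replicate 14, also added then, *Klf5* at day 7 was -0.83, and -0.40 over male cells. Where no reason is given the cause was not tested. All outlier cells are from day 3, so their inclusion gave no value at day 7. Depth limits *Klf4* and *Sox4* above all, with at most 5 reads per pooled library.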
